A study of Saccharomyces cerevisiae with 30 samples.

Results

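The nuclear genes of the yeast respiratory chain and of the mitochondrial ATP synthase were followed through 6 compound treatments and 4 solvent controls. The set held 32 of the 5449 Saccharomyces cerevisiae genes named on the array. They were chosen by membership of a complex, with earlier results of these data known. The set comprised 9 subunits of complex III, 7 nuclear subunits of complex IV, 2 NADH dehydrogenases, cytochrome c peroxidase and 13 subunits of the ATP synthase. Each gene was read by exactly 1 probe set, and the probe set with the highest mean was the rule where a gene had several.

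In the study, cultures of the laboratory strain S288C were exposed to the compounds under study or to metal chelators that served as references for iron deficiency. All groups shared this strain, in which the heme-dependent activator gene HAP1 is known to carry a transposon insertion, and all grew in buffered synthetic dextrose broth. Cultures were started at an OD600 of 0.1 and received compound or DMSO at 0.2. The short exposures ended at an OD600 of 0.5, after about 4 h, and the long ones after 4.5 doublings, about 15 h.

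The treated groups were eupolauridine-9591 (E9591, 0.053 µM) at 4 h, liriodinine methiodide (LMT, 2.6 µM) at 4 h, 2,2'-bipyridyl (BIPR, 65.9 µM) at 4 h, 1,10-phenanthroline (PHEN, 6.2 µM) at 4 h, E9591 at 15 h and LMT at 15 h. Each dose was the IC50 of that compound, so doses differed between compounds. The control groups received 0.25% DMSO: one each for the E9591, LMT and chelator experiments at 4 h, and one at 15 h that E9591 and LMT shared. Each group had 3 cultures, called biological replicates in the labels, with 1 array per culture.

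Electrons from NADH enter the yeast respiratory chain through single-protein NADH dehydrogenases, because this species has no proton-pumping complex I. They pass by ubiquinone to complex III, by cytochrome c to complex IV and from there to oxygen. Complex III works with hemes and an iron-sulfur cluster, and complex IV with hemes and copper, whereas the ATP synthase uses the resulting proton gradient and carries neither heme nor an iron-sulfur cluster. In yeast, transcription of many of these genes is repressed on glucose and depends on the Hap2/3/4/5 activator, and messages of several iron proteins are degraded when iron is short through the RNA-binding protein Cth2, encoded by TIS11.

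All 32 genes lay above the background floor on all 30 arrays, with intensities from 116 to 18636 against a floor of 11.2 to 34.5 set by probe sets for another yeast species. The median intensity of S. cerevisiae probe sets was 910 to 1221 per array, against 1.31 to 6.5 for the other species. Within groups the SD of the log2 level of a member had a median of 0.08 and reached 0.51. The DMSO group of the chelator experiment had the widest spread, with a median SD of 0.15, and its replicate C was low in complexes III and IV. The leading results with the chelators are therefore given with and without that array. An intensity is an average over a culture, so fewer cells with a transcript and less of it per cell cannot be told apart. The DMSO group of the LMT experiment differed from the other 4 h DMSO groups for 14 of the 32 members (7 higher and 7 lower), where 65.5% of all 5429 genes tested differed. The widest of these differences was that of NDI1 (-1.0 on the log2 scale). Treatments were therefore set against the DMSO cultures of their own experiment. Where effects from separate experiments were compared, the p-values leave out variation between experiments.

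Changes are differences of mean log2(intensity + 1), treated minus DMSO, ± standard error of a limma fit over all 30 arrays, with n = 3 arrays per group. The threshold for a call was an adjusted p of 0.05 (Benjamini-Hochberg over 5429 genes). The scaling of the arrays sets part of the balance of small changes at 4 h. Among all genes called, the share called higher was 73.9% with E9591, 61.6% with LMT, 59.9% with BIPR and 59.7% with PHEN. After median centring of the arrays it was 39.7% with E9591, 41.2% with LMT, 46.5% with BIPR and 42.3% with PHEN. The map of log2 changes shows the falls of complexes III and IV with both chelators, with LMT at 4 h and in both groups at 15 h, and the falls of all ATP synthase rows at 15 h.

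**Figure D1:**
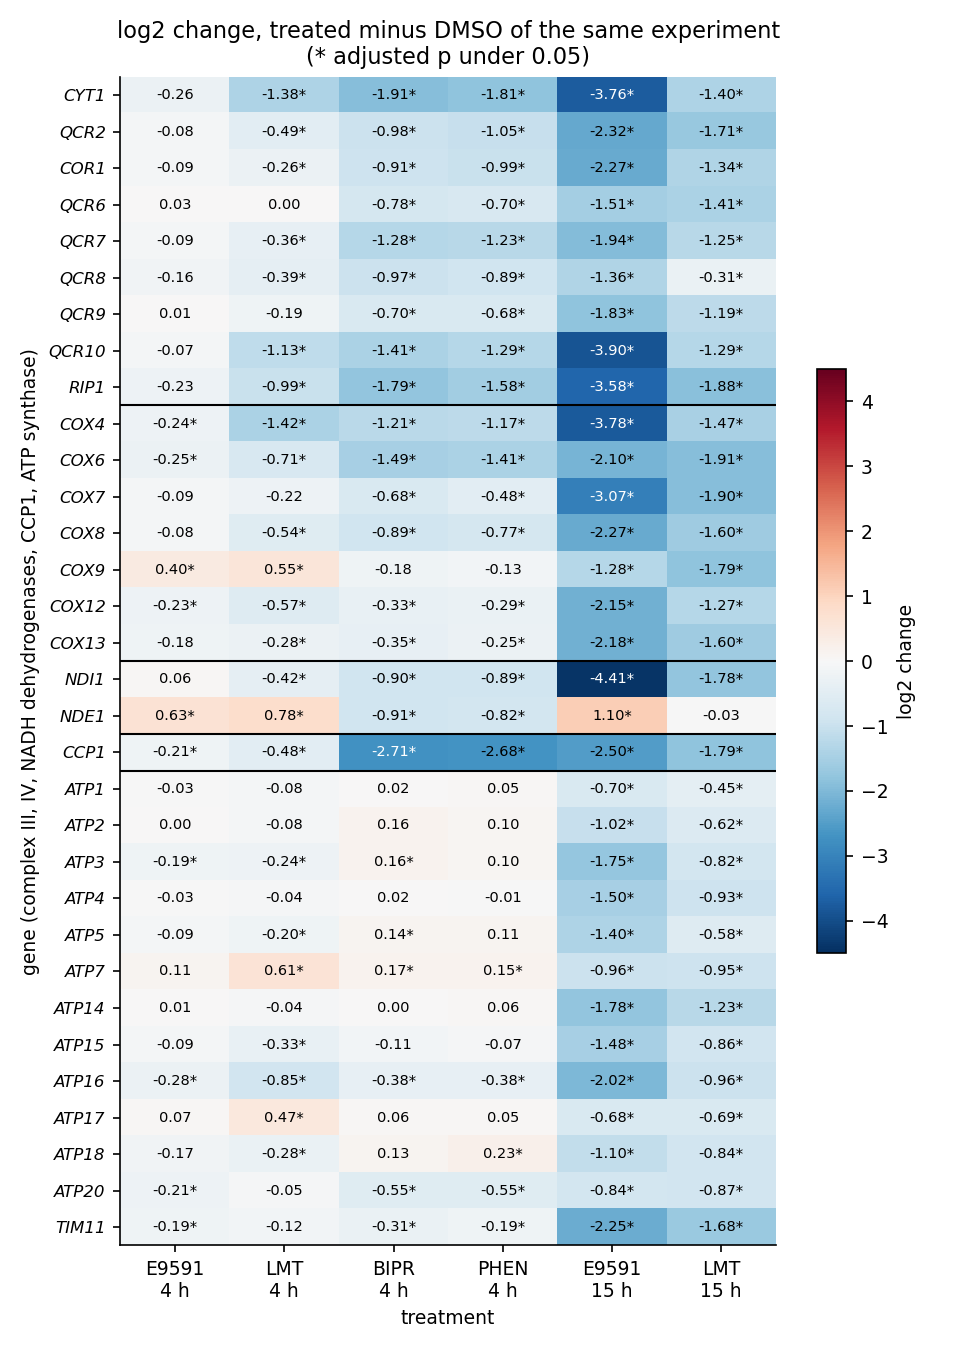
Log2 change of each of the 32 genes (rows, ordered by complex) in each of the 6 treatments (columns), treated minus DMSO of the same experiment. Blue is lower and red is higher in the treated cultures, and an asterisk marks an adjusted p under 0.05; the chelator columns are blue for complex III and near white for most of the ATP synthase.

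The comparison of each chelator with DMSO shows how these genes stood in the reference state of iron deficiency. With BIPR, 21 of the 32 members fell and 3 rose, where 18.5% of all genes tested fell and 27.7% rose. With PHEN, 21 fell and 2 rose, where 19.7% fell and 29.2% rose. The same 21 members fell with both compounds. Both were set against the same DMSO cultures, so the lists are not independent, and the share of all genes tested that fell with both is not given. Falls of at least 2-fold were called for 7 members with BIPR and 8 with PHEN, where 1.46% and 1.58% of all genes tested fell that far. The median change of the members was -0.62 with BIPR and -0.51 with PHEN, against 0.04 and 0.05 over all genes tested. Of complexes III and IV, 15 of 16 genes fell with each chelator, with a median of -0.94 for each. Of the ATP synthase, 3 of 13 fell with each, 3 rose with BIPR and 2 with PHEN, and the median was 0.02 with BIPR and 0.05 with PHEN.

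Within complex III all 9 subunits fell with both chelators. The lowest was CYT1, cytochrome c1, the heme protein that hands electrons to cytochrome c. Its intensity was 165, 219 and 116 with BIPR and 175, 208 and 141 with PHEN, against 730.5, 763 and 406 in DMSO cultures. The treated and DMSO cultures did not overlap, although DMSO replicate C lay well below the other DMSO cultures. The change was -1.91 ± 0.19 with BIPR (adjusted p = 1.33e-08), which left 26.6% of the DMSO level. With PHEN it was -1.81 ± 0.19 (adjusted p = 2.99e-08), which left 28.5%. Without DMSO replicate C the changes were -2.20 and -2.10.

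RIP1, the Rieske iron-sulfur protein, was the next lowest of the complex. It had 451, 435 and 378 with BIPR and 469.8, 540.4 and 452 with PHEN, against 1667, 1530.0 and 1204 in DMSO cultures. These groups were far apart, with every treated culture at less than every DMSO culture (-1.79 ± 0.10 and -1.58 ± 0.10). QCR10, a small subunit beside the Rieske protein, changed by -1.41 ± 0.18 and -1.29 ± 0.18, and its DMSO replicate C was again low (999 against 1822 and 1841). The core proteins COR1 and QCR2, which carry no cofactor, changed by -0.91 and -0.98 with BIPR and by -0.99 and -1.05 with PHEN. QCR7 and QCR8, which lie near the ubiquinone site, changed by -1.28 and -0.97 with BIPR and by -1.23 and -0.89 with PHEN. QCR9 and the acidic subunit QCR6 had the smallest falls of the complex, -0.70 and -0.78 with BIPR and -0.68 and -0.70 with PHEN.

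In complex IV the nuclear subunits carry no heme, and 6 of 7 fell with each chelator. COX6 was the lowest. It had 910.4, 959 and 904 with BIPR and 979, 1028 and 934 with PHEN, against 2848, 2641 and 2335 in DMSO cultures, with no overlap (-1.49 ± 0.06 and -1.41 ± 0.06). COX4, a zinc-binding subunit, followed with -1.21 ± 0.08 and -1.17 ± 0.08. COX8 and COX7 were intermediate, at -0.89 and -0.68 with BIPR and -0.77 and -0.48 with PHEN. COX13 and COX12, subunits added late at the rim of the enzyme, had the smallest called changes, -0.35 and -0.33 with BIPR and -0.25 and -0.29 with PHEN. COX9 did not pass with either compound (-0.18 ± 0.08, adjusted p = 0.0766, and -0.13 ± 0.08, adjusted p = 0.185). Without DMSO replicate C it was called lower with both, at -0.29 and -0.24.

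Outside the complexes, CCP1 had the largest change of all members. It encodes cytochrome c peroxidase, a heme enzyme that removes hydrogen peroxide with electrons from cytochrome c. Its intensity was 348, 396 and 355 with BIPR and 373, 417 and 339.6 with PHEN, against 2285, 2491 and 2432 in DMSO cultures. The groups did not overlap, and here DMSO replicate C was level with the others (-2.71 ± 0.07, adjusted p = 3.58e-19, and -2.68 ± 0.07, adjusted p = 4.85e-19). What remained was 15.3% of the DMSO level with BIPR and 15.7% with PHEN. CCP1, CYT1 and RIP1, the members that bind heme or an iron-sulfur cluster themselves, were the 3 lowest of the 32 with both chelators. Both NADH dehydrogenases, which are flavin enzymes, also fell. NDI1, which faces the matrix, changed by -0.90 ± 0.12 and -0.89 ± 0.12, and NDE1, which faces the outside, by -0.91 ± 0.09 and -0.82 ± 0.09.

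Most ATP synthase genes did not pass with the chelators. ATP1, the alpha subunit of the catalytic head, had 8945, 9254 and 8277 with BIPR and 8976, 9042 and 9086 with PHEN, against 7686, 8706 and 9921 in DMSO cultures. The groups overlapped fully (0.02 ± 0.08, 95% interval -0.15 to 0.18, and 0.05 ± 0.08, 95% interval -0.12 to 0.22). Its partner ATP2, the catalytic beta subunit, did not pass either (0.16 and 0.10). The 3 subunits that fell with both compounds were ATP20, a membrane subunit of the dimer interface (-0.55 ± 0.08 and -0.55 ± 0.08), ATP16, the delta subunit of the central stalk (-0.38 ± 0.06 and -0.38 ± 0.06), and TIM11, the other dimer subunit (-0.31 ± 0.07 and -0.19 ± 0.07). TIM11 lost its call with PHEN when the chelator experiment was fitted alone and without any one of 4 single arrays (DMSO replicates A and B, PHEN replicates A and C).

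Called rises in the ATP synthase were small and depended on the processing. They were ATP3, ATP5 and ATP7 with BIPR (0.16, 0.14 and 0.17) and ATP7 and ATP18 with PHEN (0.15 and 0.23). None was called when each array was centred on its median. Falls of complexes III and IV were called for at least 14 of 16 genes with BIPR and at least 13 with PHEN under every alternative run. Without DMSO replicate C they were called for all 16 with each compound. After median centring, 25.9% of all genes tested were called lower with BIPR and 30.0% with PHEN. The shares under the other alternatives are not given. Without that array the change of CCP1 was -2.70 with BIPR and -2.67 with PHEN, that of RIP1 -1.92 and -1.71, that of COX6 -1.57 and -1.48 and that of QCR10 -1.71 and -1.58.

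Averaged over genes in each culture, the contrast between the complexes held for every culture. The mean change of the 16 genes of complexes III and IV was -0.97, -0.93 and -1.07 in the BIPR cultures and -0.95, -0.80 and -1.01 in the PHEN cultures, against 0.15, 0.10 and -0.25 around the mean of the DMSO cultures. The mean change of the 13 ATP synthase genes lay between -0.04 and -0.01 in all 6 chelator cultures, against 0.02, 0.02 and -0.04 in the DMSO cultures. Every chelator culture was below every DMSO culture for complexes III and IV, and DMSO replicate C was the lowest of the controls. The plot of mean changes by culture shows this gap for both compounds.

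**Figure D2:**
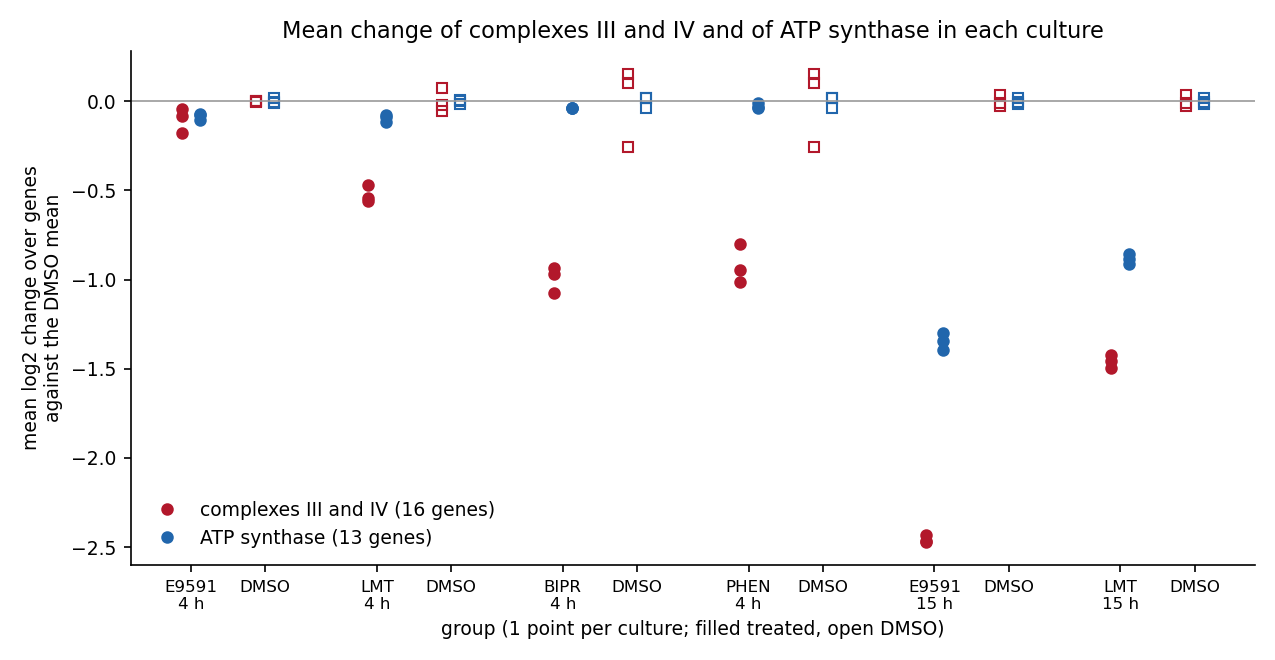
Mean log2 change (vertical axis) of the 16 genes of complexes III and IV (red) and the 13 ATP synthase genes (blue) in each culture, relative to the mean of the DMSO cultures of its experiment. Filled circles are treated and open squares DMSO cultures; the chelator cultures sit near -0.9 for complexes III and IV and near 0 for the ATP synthase.

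PHEN differs from BIPR in structure by a bridge that joins its rings into a fused system. In limma, 0 of the 32 members differed between the compounds, and 0% of all genes tested. At an unadjusted p under 0.05 the counts were 1 of the 32 members and 286 of 5429 genes. The PHEN minus BIPR difference of a member lay between -0.07 and 0.21. RIP1, the member with the low unadjusted p, had 469.8, 540.4 and 452 with PHEN, against 451, 435 and 378 with BIPR, a difference of 0.21 ± 0.10 (95% interval 0.01 to 0.41, adjusted p = 0.914). The widest interval was that of CYT1, -0.29 to 0.49, so differences of that size could not be resolved. For ATP4, the narrowest case, the interval was -0.12 to 0.07.

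LMT at 4 h was tested for a change of the same genes at its own dose. Of the 32 members, 19 fell and 4 rose, where 25.2% of all genes tested fell and 40.4% rose, and the median change was -0.27 against 0.10 over all genes. Complexes III and IV fell for 12 of 16 genes and rose for 1 (median -0.44). The ATP synthase fell for 5 of 13 and rose for 2 (median -0.08).

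The fall in complex III was uneven. CYT1 had 357, 394 and 324 with LMT, against 902, 932 and 968 in DMSO cultures, and RIP1 had 656, 531 and 612 with LMT, against 1080.4, 1188 and 1298. Neither gene overlapped between the groups, and the changes were -1.38 ± 0.19 (adjusted p = 8.67e-07) and -0.99 ± 0.10 (adjusted p = 6.02e-09). QCR10 fell by a similar amount (-1.13 ± 0.18), while QCR2, QCR8, QCR7 and COR1 changed by -0.49, -0.39, -0.36 and -0.26. QCR9 (-0.19) and QCR6 (0.00) did not pass.

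COX4 had the lowest change of all members with LMT at 4 h. Its intensity was 804, 857 and 859.8 with LMT, against 2168, 2223 and 2349 in DMSO cultures. The treated cultures were closely grouped at 37.4% of the DMSO level (-1.42 ± 0.08, adjusted p = 6.57e-13). COX6, COX12, COX8 and COX13 also fell (-0.71, -0.57, -0.54 and -0.28), and COX7 did not pass (-0.22 ± 0.10, adjusted p = 0.0555).

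COX9, another small subunit of complex IV, moved the other way. It had 5193, 5456 and 5931 with LMT, against 3898, 3674 and 3731 in DMSO cultures, with no overlap (0.55 ± 0.08, adjusted p = 3.27e-06). NDE1 rose too, with 3476, 3747 and 3509.8 against 2273, 2121 and 1864 (0.78 ± 0.09), whereas NDI1 fell (-0.42 ± 0.12), a call lost without LMT replicate C (-0.29). CCP1 fell by less than the leading genes of complex III (-0.48 ± 0.07).

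In the ATP synthase, ATP16 fell and ATP7 rose. ATP16 had 2966, 2913 and 3082 with LMT, against 5274, 5402 and 5468 in DMSO cultures (-0.85 ± 0.06, adjusted p = 4.8e-11). ATP7, the subunit d of the peripheral stalk, had 5396, 5059 and 5174 with LMT, against 3322, 3225 and 3702 (0.61 ± 0.06, adjusted p = 9.56e-09). Neither pair of groups overlapped. ATP17, the membrane subunit f, rose as well (0.47 ± 0.12), and ATP15, ATP18, ATP3 and ATP5 fell (-0.33, -0.28, -0.24 and -0.20). The split of the small changes moves with the scaling of the arrays: with each array centred on its median, 11 of the 13 ATP synthase genes were called lower, and so were 39.9% of all genes tested.

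E9591 at 4 h was tested in the same way at its own dose. Of the 32 members, 8 fell and 2 rose, where 11.3% of all genes tested fell and 32% rose, and the median change was -0.09 against 0.09 over all genes. Complexes III and IV fell for 3 of 16 genes and rose for 1, and the ATP synthase fell for 4 of 13, each with a median of -0.09. No gene of complex III passed. The lowest of the members was ATP16 (-0.28 ± 0.06, adjusted p = 0.00123), followed by CYT1, which did not pass (-0.26 ± 0.19, 95% interval -0.65 to 0.13).

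The falls were those of COX6, COX4 and COX12 (-0.25, -0.24 and -0.23), CCP1 (-0.21), and ATP16, ATP20, ATP3 and TIM11 (-0.28, -0.21, -0.19 and -0.19). COX6 had 2561, 2762 and 2779 with E9591, against 3255, 3109 and 3279 in DMSO cultures, so the groups did not overlap although the change was small. These falls depend on single arrays and on scaling. Between 6 and 8 members were called when 1 array was left out, with 6 without E9591 replicate A, DMSO replicate A or DMSO replicate C, and 22 were called (20 lower) when each array was centred on its median, where 30.0% of all genes tested were called lower.

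The rises of NDE1 and COX9 were called under every alternative run. NDE1 had 3132, 2912 and 2999.8 with E9591, against 2019, 1951 and 1855 in DMSO cultures (0.63 ± 0.09, adjusted p = 2.89e-06). COX9 had 4992, 4426 and 4737 with E9591, against 3805, 3492 and 3422 (0.40 ± 0.08, adjusted p = 0.000422). Both genes were non-overlapping between the groups, and the same 2 rose with LMT at 4 h. The plot of levels by array shows both genes beside others that fell.

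**Figure D3:**
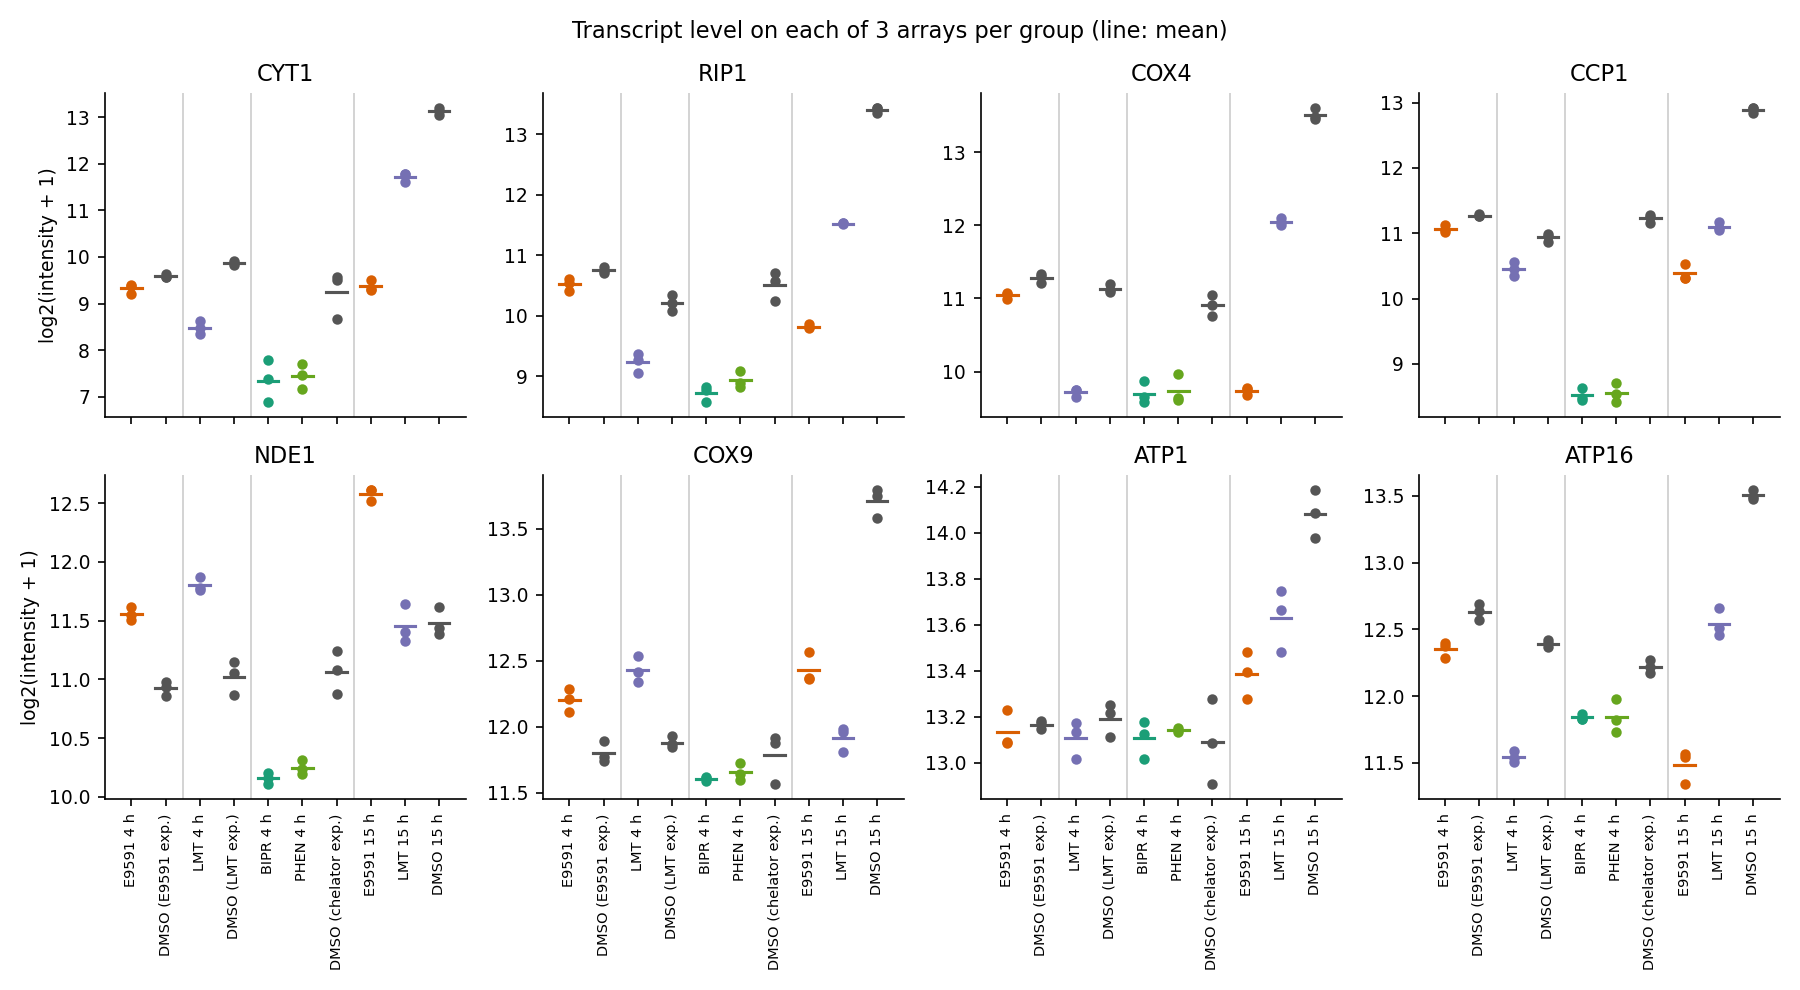
Level of 8 members as log2(intensity + 1) (vertical axis, its range differing between panels) on each array of the 10 groups, with short lines at group means. Vertical grey lines separate the 4 experiments, each with its treated groups left of their DMSO group in dark grey; CCP1 is lowest with the chelators, while NDE1 is highest with E9591 at 15 h.

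The difference between LMT and E9591 at 4 h was tested with each compound against its own DMSO cultures and at its own dose. The LMT effect was lower for 9 of 32 members and higher for 1, where 13.5% and 12.4% of all genes tested differed in these directions. The 9 were COX4 (-1.17 ± 0.12), CYT1 (-1.12 ± 0.27), QCR10 (-1.06 ± 0.26), RIP1, ATP16, NDI1, COX6, QCR2 and ATP15. ATP7 was the gene with a higher LMT effect (0.50 ± 0.09, adjusted p = 0.000195). For COX9 and NDE1, which rose with both compounds, the difference was 0.15 (95% interval -0.09 to 0.39) and 0.15 (-0.11 to 0.40). The count is sensitive to how the spread is estimated, with 16 members called with array weights and 16 on the arrays of these experiments alone. The shares of all genes tested that were called in these settings are not given.

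Set against the mean effect of the chelators, E9591 at 4 h had higher values for 18 members and lower values for 3, where 18.9% of all genes tested were higher and 10% lower. All 9 genes of complex III and 5 of 7 of complex IV were higher with E9591, and CCP1 differed most (2.48 ± 0.10). LMT had higher values than the chelators for 16 members and lower values for 5, where 29.6% were higher and 21.2% lower. CCP1 again differed most (2.21 ± 0.10), followed by NDE1 (1.64 ± 0.12). For COX4, QCR10 and CYT1 the LMT effect did not differ from that of the chelators beyond the error. The differences were -0.23 (95% interval -0.46 to 0.00), 0.23 (-0.28 to 0.73) and 0.48 (-0.04 to 1.00). The chelator falls of QCR10 and CYT1 were larger without DMSO replicate C of the chelator experiment. Their differences from LMT therefore depend on that array, and no likeness is read from these intervals. With 1 array left out, 19 to 24 members were called for LMT against the chelators.

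At 15 h the DMSO cultures themselves had moved. Against the mean of the 3 DMSO groups at 4 h, all 32 members were higher in DMSO cultures at 15 h, where 48.3% of all genes tested were higher, with a median of 1.81 against 0.12 over all genes. Complexes III and IV rose by a median of 2.06 and the ATP synthase by 1.19. The 15 h and 4 h cultures belong to different experiments, so time and experiment cannot be told apart. NDI1 had the largest difference, with 8158, 7602 and 8207 at 15 h, against 727, 687 and 644 in the 4 h DMSO cultures of the E9591 experiment, 322, 377 and 366 in those of the LMT experiment and 873, 777 and 575 in those of the chelator experiment (3.83 ± 0.10). CYT1 (3.56 ± 0.15) and RIP1 (2.92 ± 0.08) came next, and NDE1 differed least (0.48 ± 0.07). Of the 10 groups, DMSO at 15 h had the highest mean for 31 of the 32 members, the exception being NDE1. The share of all genes tested with their highest mean in that group is not given. A list of 12 glucose-repressed genes, among them the gluconeogenic and glyoxylate genes PCK1, FBP1, ICL1 and MLS1, was higher in the same DMSO cultures for all 12 members, with a median of 6.35. The part of that shift in the results at 15 h was not tested.

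E9591 at 15 h lowered 31 of the 32 members relative to DMSO at 15 h and raised 1, where 42.2% of all genes tested fell and 45.7% rose. The median change was -1.88 against 0.05 over all genes. LMT at 15 h lowered 31 and raised 0, where 41.9% fell and 41.9% rose, with a median of -1.26 against -0.01. All 16 genes of complexes III and IV and all 13 of the ATP synthase fell with both. The median of complexes III and IV was -2.22 with E9591 and -1.44 with LMT, and that of the ATP synthase -1.40 and -0.86. Falls of at least 2-fold were called for 27 members with E9591 and 19 with LMT, where 23.2% and 14.9% of all genes tested fell that far. The counts of falls in the complexes stood under every alternative run. The glucose-repressed list fell for 12 of 12 genes with E9591 (median -4.65) and for 10 of 12 with LMT (median -4.71, 2 rose), and its part in these results was not tested.

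NDI1 had the largest fall with E9591 at 15 h. Its intensity was 387, 378 and 359.6 with E9591 and 2262, 2437 and 2256 with LMT, against 8158, 7602 and 8207 in DMSO cultures. The 3 groups were fully separate, with E9591 lowest and LMT between (-4.41 ± 0.12 and -1.78 ± 0.12). CYT1 had 628, 633 and 729 with E9591 and 3514, 3509 and 3143 with LMT, against 8514, 8973 and 9392 (-3.76 ± 0.19 and -1.40 ± 0.19). COX4 had 821, 873 and 866 with E9591 and 4092, 4217 and 4392 with LMT, against 11423, 11253 and 12435 (-3.78 ± 0.08 and -1.47 ± 0.08). With E9591, CYT1 retained 7.4%, COX4 7.3% and NDI1 4.7% of the DMSO level. QCR10 and RIP1 fell by similar amounts with E9591 (-3.90 and -3.58), and the other genes of complexes III and IV changed by -1.28 (COX9) to -3.07 (COX7).

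With LMT the changes spanned a narrower range than with E9591. Complex III ranged from -1.88 (RIP1) to -0.31 (QCR8), and complex IV from -1.91 (COX6) to -1.27 (COX12). CCP1 changed by -2.50 ± 0.07 with E9591 and -1.79 ± 0.07 with LMT. COX9, which had risen at 4 h with both compounds, fell with both at 15 h (-1.28 ± 0.08 and -1.79 ± 0.08).

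NDE1 was the member that did not fall. It had 6269.5, 5863 and 6251 with E9591 and 2564, 3193 and 2703 with LMT, against 2683, 3137 and 2778 in DMSO cultures. All E9591 cultures were far above all others, while the LMT cultures overlapped with DMSO (1.10 ± 0.09, adjusted p = 1.67e-11, and -0.03 ± 0.09, 95% interval -0.21 to 0.15). NDE2, a close relative of NDE1 that also oxidises cytosolic NADH, behaved otherwise: its change was -6.16 ± 0.20 with E9591 and -3.38 ± 0.20 with LMT, after rises at 4 h of 2.90 ± 0.20 and 3.16 ± 0.20.

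In the ATP synthase the lowest member at 15 h was TIM11 with each compound. It had 1905, 2069 and 1875 with E9591 and 3026, 3053 and 2604 with LMT, against 9537, 9197 and 9065 in DMSO cultures (-2.25 ± 0.07 and -1.68 ± 0.07). ATP16 was next with E9591 (-2.02 ± 0.06) and ATP14, a peripheral stalk subunit, with LMT (-1.23 ± 0.11). ATP1 had the smallest fall with LMT, 12986, 11437 and 13735 against 18636, 16098 and 17389.9 in DMSO cultures (-0.45 ± 0.08), and a small one with E9591 (-0.70 ± 0.08). By position in the enzyme, the medians with E9591 were -1.48 for the 5 subunits of the head and central stalk, -1.45 for 4 of the peripheral stalk and -0.97 for 4 of the membrane and dimer part. With LMT they were -0.82, -0.94 and -0.85.

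Per culture, the mean change of complexes III and IV was -2.47, -2.43 and -2.47 with E9591 and -1.45, -1.42 and -1.50 with LMT. That of the ATP synthase was -1.35, -1.30 and -1.40 with E9591 and -0.88, -0.86 and -0.91 with LMT. In the DMSO cultures both means stayed between -0.03 and 0.04. Relative to DMSO at 15 h, complexes III and IV were thus below the ATP synthase in each of the 6 treated cultures. The gap was -1.07 to -1.14 with E9591 and -0.57 to -0.58 with LMT. That DMSO group itself exceeded DMSO at 4 h by more for complexes III and IV than for the ATP synthase. The part of this shift in the gap was not tested.

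LMT and E9591 shared an experiment at 15 h and were compared directly, each at its own dose. LMT was higher for 26 of 32 members and lower for 2, where 39.5% of all genes tested were higher and 38.6% lower. The median difference was 0.63 for the members and 0.00 for all genes. NDI1 (2.63 ± 0.12), QCR10 (2.61 ± 0.18), CYT1 (2.35 ± 0.19), COX4 (2.31 ± 0.08) and RIP1 (1.70 ± 0.10) had the largest differences. Lower with LMT were NDE1 (-1.13 ± 0.09) and COX9 (-0.51 ± 0.08). QCR6, ATP7, ATP17 and ATP20 did not differ beyond the error, with 95% intervals of -0.07 to 0.28, -0.12 to 0.14, -0.26 to 0.23 and -0.18 to 0.13.

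CYT1, QCR10, RIP1 and COX4, a group picked after their values were seen, led the falls with LMT at 4 h and were among the lowest with E9591 at 15 h. Their median change was -1.26 with LMT at 4 h, -3.77 with E9591 at 15 h and -1.43 with LMT at 15 h. For the other 12 genes of complexes III and IV it was -0.32, -2.13 and -1.50. The lower medians of the picked genes with LMT at 4 h and E9591 at 15 h follow from how they were picked. The 16 genes of complexes III and IV include the picked genes, which were low with LMT at 4 h and with E9591 at 15 h. Their inclusion raises the correlation of these comparisons, and the value for the other 12 genes is not given. Across all 16, LMT at 4 h and E9591 at 15 h had a Pearson correlation of 0.84 and a Spearman correlation of 0.72. Over all genes tested these were -0.06 and -0.05. The other correlations here are Pearson values. LMT at 4 h and LMT at 15 h had -0.03 over the same 16 genes, and LMT and E9591 at 4 h had 0.77, against 0.81 over all genes tested. The pairs with BIPR gave 0.77 for LMT at 4 h and 0.64 for E9591 at 15 h, against 0.42 and -0.18 over all genes tested, and 0.55 for E9591 at 4 h and 0.04 for LMT at 15 h, against 0.50 and -0.23. These pairs of comparisons share no arrays, genes are not independent replicates, and the values are descriptions.

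The effect of E9591 at 15 h differed from its effect at 4 h for all 32 members, where 84.6% of all genes tested differed. That of LMT differed for 27, near the 82.8% of all genes tested that differed.

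Since the DMSO cultures had changed by 15 h, the treated cultures at 15 h were also set against the mean of the 3 DMSO groups at 4 h, a comparison added after the data had been seen. LMT at 15 h was higher for 27 members and lower for 1, where 46.2% of all genes tested were higher and 34.3% lower, with a median of 0.53. E9591 at 15 h was higher for 6 and lower for 16, where 46.1% were higher and 33.6% lower, with a median of -0.20. QCR10 (-1.48 ± 0.15) and COX4 (-1.37 ± 0.07) were the lowest with E9591, and ATP16 the lowest of the ATP synthase (-0.93 ± 0.05). NDE1 (1.58 ± 0.07) and QCR6 (0.73 ± 0.07) were the highest. With LMT the highest were CYT1 (2.15 ± 0.15) and NDI1 (2.04 ± 0.10), and the member that was lower was COX6 (-0.15 ± 0.05). The plot of levels at 15 h shows E9591 mostly near or under the 4 h level, with NDE1 and QCR6 furthest above it. LMT lay mostly between E9591 and DMSO at 15 h, but COX9 and NDE1 were lower with LMT than with E9591.

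**Figure D4:**
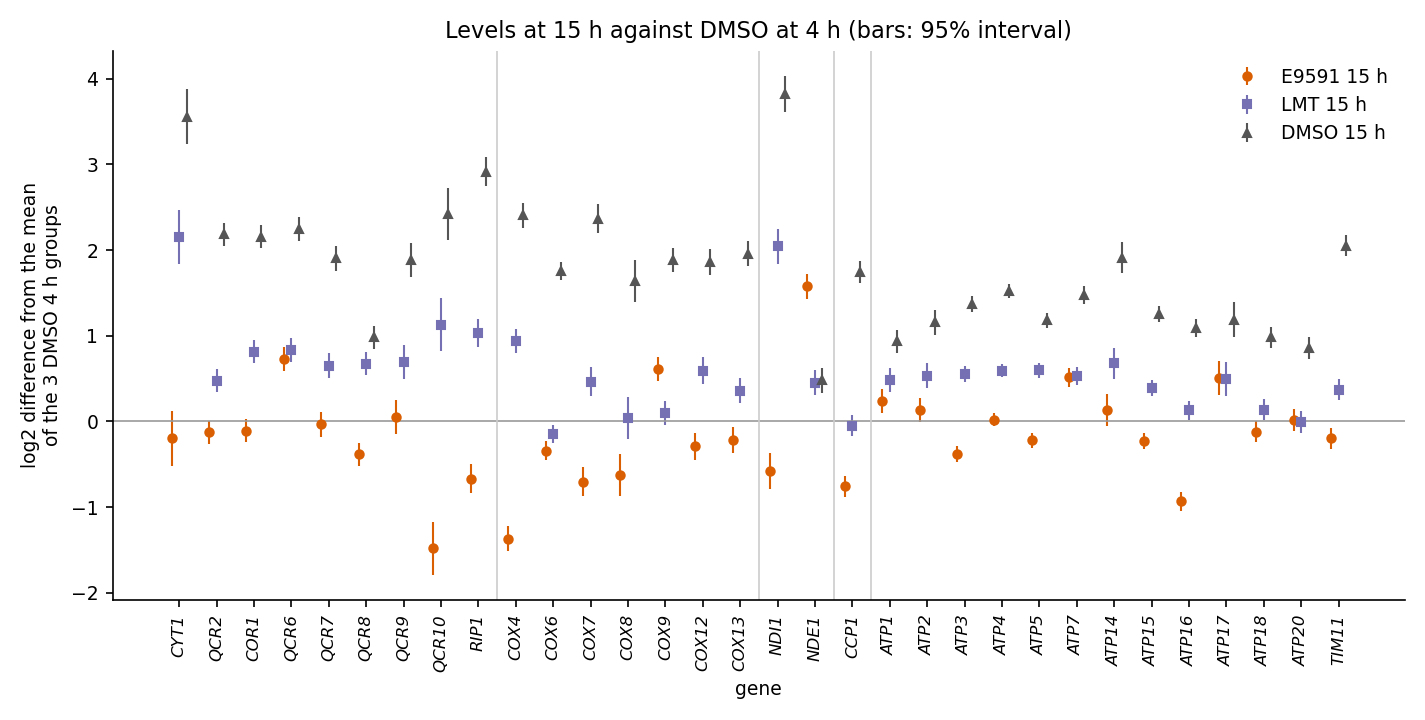
Log2 difference of the 3 groups at 15 h from the mean of the 3 DMSO groups at 4 h (vertical axis) for each of the 32 genes (horizontal axis, grouped by complex), with 95% intervals. E9591 (orange circles) lies mostly near or below 0, LMT (purple squares) mostly between 0 and 1, and DMSO (grey triangles) highest except for NDE1.

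Over the 6 treatments, COX4, COX6, COX12, CCP1 and ATP16 were called lower in each. With E9591 at 4 h their changes were only -0.28 to -0.21, in a comparison whose falls depended on single arrays and on scaling. The share of all genes tested that were called lower in each treatment is not given. Of the 10 groups, BIPR had the lowest mean for 16 members and PHEN for 3, and 14 of these 19 belong to complexes III and IV. In the ATP synthase the lowest group varied, with 4 subunits lowest in the DMSO group of the chelator experiment and 3 lowest with E9591 at 15 h. These orders set groups of different experiments side by side. Shares of all genes tested with such extremes are not given, so the counts describe the members alone.

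Genes that work with the members were followed from lists, and their counts are set beside the shares of all genes tested. Of 16 other subunits and carriers with a probe set, 8 fell and 3 rose with each chelator, where 18.5% of all genes fell and 27.7% rose with BIPR, and 19.7% fell and 29.2% rose with PHEN. CYC1, cytochrome c itself, was the lowest with both (-4.09 ± 0.12 and -3.93 ± 0.12), followed by the iron-sulfur subunit of succinate dehydrogenase, SDH2 (-2.03 ± 0.13 and -2.14 ± 0.13). COX5A, the aerobic form of complex IV subunit V, fell (-1.10 and -1.05), and COX5B, its hypoxic form, did not pass (0.08 and 0.27). With LMT at 4 h, 9 of the 16 fell and 4 rose, where 25.2% of all genes fell and 40.4% rose, and CYC1 again was lowest (-1.66 ± 0.12). With E9591 at 4 h, 4 fell, CYC1 among them (-0.66 ± 0.12), and 4 rose, or 25.0% in each direction, where 11.3% of all genes fell and 32% rose. At 15 h, 16 fell with E9591 and 14 with LMT, where 42.2% and 41.9% of all genes fell. INH1, the inhibitor protein of the ATP synthase, fell further than any subunit of that enzyme (-4.63 ± 0.11 and -2.57 ± 0.11).

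Of 41 assembly factors of complexes III and IV, 12 fell and 4 rose with BIPR, or 29.3% and 9.76%, and 11 fell and 8 rose with PHEN, or 26.8% and 19.5%. Of all genes, 18.5% fell and 27.7% rose with BIPR, and 19.7% fell and 29.2% rose with PHEN. The median changes of these factors were -0.07 and -0.04. COA2, a complex IV assembly factor, was lowest (-2.08 ± 0.22 and -2.14 ± 0.22), and CBP4, which acts on complex III, followed (-1.38 ± 0.12 and -1.27 ± 0.12). CYT2, the lyase that attaches heme to cytochrome c1, fell with both (-0.96 and -0.81), and CYC3, which does so for cytochrome c, did not pass (-0.07 and -0.03). With E9591 at 4 h, 12 factors (29.3%) rose and 0 fell, and 32% of all genes rose. With LMT at 4 h, 13 (31.7%) rose and 11 (26.8%) fell, where 40.4% and 25.2% of all genes did so, so these counts lay near the background. At 15 h, 27 (65.9%) fell and 7 rose with E9591, and 23 (56.1%) fell and 9 rose with LMT, where 42.2% and 41.9% of all genes fell. Of 13 assembly factors of the ATP synthase, 2 (15.4%) rose and 0 fell with BIPR and 3 (23.1%) rose and 1 fell with PHEN, where 27.7% and 29.2% of all genes rose. At 15 h, 10 (76.9%) fell with E9591 and 6 (46.2%) with LMT, and 1 rose with each. That gene was the processing protease ATP23 (1.96 ± 0.13 and 1.38 ± 0.13).

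Regulators of these genes were read on the same arrays. HAP4, the subunit that makes the Hap complex active, fell with both chelators (-0.79 ± 0.14 and -0.84 ± 0.14), rose with LMT at 4 h (1.11 ± 0.14) and did not pass with E9591 at 4 h (0.26 ± 0.14). At 15 h it fell with E9591 (-1.83 ± 0.14) and LMT (-1.28 ± 0.14), and it was higher in DMSO cultures at 15 h than at 4 h (3.82 ± 0.12). TIS11 rose with E9591 at 4 h (0.94 ± 0.07), BIPR (0.98 ± 0.07), PHEN (0.93 ± 0.07) and LMT at 4 h (0.16 ± 0.07, adjusted p = 0.0491). The last of these was smaller than the shift of -0.20 that median centring gave over all genes. At 15 h TIS11 fell with E9591 (-0.24 ± 0.07) and LMT (-0.23 ± 0.07). HAP1 rose with BIPR (1.18), PHEN (1.17), E9591 at 4 h (0.39), LMT at 4 h (0.30) and LMT at 15 h (0.25) and fell with E9591 at 15 h (-0.48). Of 12 genes of the iron regulon, a set that takes up and releases iron, 12 rose with each chelator, 12 with E9591 at 4 h and 8 with LMT at 4 h, where 27.7% (BIPR), 29.2% (PHEN), 32% (E9591) and 40.4% (LMT) of all genes rose. At 15 h, 9 rose and 1 fell with E9591, and 6 rose and 4 fell with LMT, where 45.7% and 41.9% of all genes rose. The glucose-repressed list rose at 4 h for 8 of 12 genes with E9591, 10 with LMT, 7 with BIPR and 6 with PHEN, and fell for 0. In the same order, 32%, 40.4%, 27.7% and 29.2% of all genes rose, and 11.3%, 25.2%, 18.5% and 19.7% fell. Its relation to the changes of complexes III and IV was not tested.

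ADP/ATP carriers supply the substrate of the ATP synthase. AAC1, a minor ADP/ATP carrier, rose in all 4 groups at 4 h, by 1.31 with E9591, 1.88 with LMT, 0.75 with BIPR and 0.91 with PHEN. At 15 h it fell (-1.28 and -2.07). AAC3, the carrier of hypoxic cells, fell at 4 h with LMT (-0.73), BIPR (-0.32) and E9591 (-0.27) and did not pass with PHEN (-0.18). At 15 h it rose with E9591 (3.25 ± 0.10) and LMT (2.21 ± 0.10). COX5B, the hypoxic form named above, did not rise at 15 h: it fell with E9591 (-2.39) and did not pass with LMT (-0.10). PET9, the main ADP/ATP carrier, changed little at 4 h (-0.24 to 0.03) and fell at 15 h (-0.84 and -1.04).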

How the data were processed

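Total RNA from 30 cultures was labelled as biotinylated cRNA and hybridised to Affymetrix yeast arrays, 1 array per culture, per the labels' protocols. The deposited values are linear intensity per probe set, scaled by the authors: the 2% trimmed mean of each array was 1000.4 to 1000.8. The software behind these values is not given in the sources used here. The number of arrays limits the precision.

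Of 10928 probe sets, 5498 had 1 S. cerevisiae gene in the platform annotation, 1746 belonged to another species, 1 had several genes and 3683 were unnamed here. Genes with several probe sets kept that of the highest mean, which left 5449 genes. The 5429 tested lay above the 95th percentile of the other-species probe sets on at least 3 arrays. All 32 members had 1 probe set and were tested.

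log2(intensity + 1) was fitted with limma 3.58.1 (R 4.3.3) on all 30 arrays as 10 group means, with comparisons as contrasts and Benjamini-Hochberg adjustment over 5429 genes. The fit was tested on simulated data. All members could be named. From the other lists, the rule named up to 4 genes per comparison with the largest called change, plus genes that bear on a member. The members and lists were chosen with earlier results of these data known. Replicate letters did not pair cultures: correlations of deviations between same-letter cultures were -0.09 to 0.23. Alternatives covered the pseudocount, filter, probe-set averaging, quantile scaling, median centring, array weights, separate experiments, a replicate block and leaving out each array. No promoter or protein sequence was used here.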

Additional observations from a re-analysis of the deposited data

Results flagged for a closer look

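Effects of the same compound at 15 h and at 4 h, each against its own DMSO cultures, were compared by the interaction term in limma. The times belong to different experiments, so time and experiment cannot be told apart. The 3 cultures of each group are too few for a check of single cultures.

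For E9591, the effect at 15 h differed from that at 4 h for 32 members, where 84.6% of all genes tested differed, and was lower for 31 of them. The 15 h minus 4 h difference was -4.47 for NDI1, -3.83 for QCR10 and -3.53 for COX4. NDE1, which rose at both times, had a difference of 0.46.

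For LMT, 27 members differed, where 82.8% of all genes tested differed, and all 27 were lower at 15 h. The difference was -2.35 for COX9, which rose at 4 h and fell at 15 h, and -1.68 for COX7. ATP7 had -1.56 and NDE1 -0.81. CYT1 (-0.02), QCR8 (0.08), QCR10 (-0.16), COX4 (-0.05) and ATP16 (-0.11) did not pass. Of these, CYT1, QCR10, COX4 and ATP16 had fallen with LMT by 0.85 or more on the log2 scale already at 4 h.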

How the results depend on the processing

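Of 378 member calls over 17 comparisons, 342 stood under every alternative run, and the largest change whose call was lost was 0.48 on the log2 scale. Pseudocount, filter and probe-set averaging changed no member call, and could hardly have done so. Every member had 1 probe set, lay above the floor on all arrays and had intensities of at least 116. The E9591 count at 4 h rose to 22 members with median centring, where 30.0% of all genes tested were called lower and 19.8% higher. It was 6 to 8 with 1 array left out. The count for LMT against E9591 at 4 h was 16 with array weights, 16 on those experiments alone and 8 to 11 with 1 array left out. Median centring turned the sign of QCR6 with LMT at 4 h (-0.20) and, against the 4 h DMSO groups, of ATP4 (-0.21) and ATP20 (-0.22) with E9591 at 15 h and ATP16 (-0.085) and ATP18 (-0.076) with LMT at 15 h. Quantile scaling turned ATP4 in LMT against the chelators (0.11). With 1 array left out, members called were 22 to 24 for LMT at 4 h, 21 to 24 for BIPR, 20 to 22 for PHEN, 32 for E9591 at 15 h and 31 for LMT at 15 h. The replicate block, fitted although the letters share only a name, gave 12 calls for E9591 and 24 for LMT at 4 h, and 23 for each chelator. Shares of all genes tested are not given for array weights, separate experiments, the block or 1 array left out. Those counts describe the members alone. Centring moved the median of all genes by -0.16 for E9591 and -0.20 for LMT at 4 h. Centring also moved the share of higher calls over all genes, to 48.3% against 65.3% for E9591 minus chelators, 43.7% against 58.2% for LMT minus chelators, and 42.5% against 57.8% (E9591) and 43.4% against 57.4% (LMT) for the 15 h groups against DMSO at 4 h. The causes were not tested. The doses, equal only in growth effect, limit comparisons between compounds.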
